A study of Macaca mulatta with 2 samples.

Results

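The genes described are 54 genes of inflammatory signalling, measured in cultured Sertoli cells of the rhesus macaque, Macaca mulatta. They comprise interleukins and their receptors, chemokines, tumour necrosis factor (TNF) and genes it induces, the subunits and inhibitors of the transcription factor NF-kB, adhesion molecules, serum amyloid A genes, and STAT3 with the SOCS inhibitors. Members were chosen by name, as every gene probe whose gene name in the array design is one of the 54. They held 88 probes on 118 spots, among 21509 gene names on the array.

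NF-kB is a family of transcription factors kept in the cytoplasm by inhibitor proteins. When IL-1, TNF or microbial products bind their receptors, the inhibitors are degraded and the factors enter the nucleus, where they switch on cytokines, chemokines, adhesion molecules and the inhibitors' own genes. IL-6, one of the cytokines they switch on, signals through the receptor chain gp130 to STAT3, which in turn induces the SOCS proteins that shut the pathway down. Sertoli cells line the seminiferous tubule and nurse germ cells, and in the testis IL-1 and IL-6 are known both as inflammatory signals and as local regulators of Sertoli cell function.

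Messenger RNA was measured on 2 one-colour oligonucleotide arrays, each hybridised with Cy3-labelled RNA from 1 group of primary Sertoli cell cultures. The infant group came from males younger than 3 months, with no treatment of the animals recorded. For the pubertal group, aged 18 to 22 months, puberty was induced in juvenile males with gonadotropin-releasing hormone (GnRH) delivered by catheter at 0.15 µg/min, in pulses of 2 min at intervals of 3 h, over 4 to 5 weeks. Both groups were then exposed in culture to follicle-stimulating hormone (FSH, 5 ng/ml) and testosterone (100 nM) for 12 h, so neither shows untreated cells. The number of animals pooled is not stated in the sources used. With 1 array a group there was no replicate and no test, and animal, culture, age and GnRH cannot be told apart. The comparison describes how these genes differed between the infant and the pubertal culture.

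On the pubertal array 54.9% of gene spots were well above background, as were 54.8% on the infant one, and no gene spot was saturated. Signals are given in the scanner's intensity units. Differences are on the log2 scale, pubertal minus infant, after division by the array's 75th percentile (406.7 units pubertal, 382.4 units infant), so they are relative to the array's other genes. A gene counted as measured where a probe was well above background on both arrays, and its difference is the mean over such probes. The error given with a difference is the scanner software's own estimate, with a median of 0.20 over the measured members, and it covers the array, not the culture. The probes are human and the RNA is from a monkey, so a signal not well above background does not show that a transcript was absent. A probe's signal also depends on the probe, so single genes were not ranked by signal, and the sums over cell type markers given below describe each list between the arrays only. All 14 Sertoli cell markers, among them SOX9, WT1, AMH and the FSH receptor FSHR, were measured on both arrays.

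The readings rest on probes of 60 bases. The first 30 bases of the probes behind 7 of the largest differences follow, 5′ to 3′ as the array files list them, because a single probe carries each of these results.
IL6: attgttgttgttaatgggcattccttcttc
IL1RL1: tggttttaagaatagctgacgtgaaggaag
IL33: aacttcatttctgtatcacctgacctctgg
CXCL14: gtggtacaacgcctggaacgagaagcgcag
NFKBIA: tgatgtggggtgaaaagttactacctgtca
IL1A: ttattattcttcataacaattttaggagga
IL4R: gtctgtgtgttttagtttcatcacctgtta

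Other probes are shown because of what they share. The probes of the neutrophil chemokines CXCL3 and CXCL2 overlap over 32 bases, of which 30 are identical, and capitals mark the 2 that differ. The stretches shown are bases 1 to 30 of the CXCL3 probe and bases 29 to 58 of the CXCL2 probe.
CXCL3: tgtctcaaccccgcatcCcccatggttCag
CXCL2: tgtctcaaccccgcatcGcccatggttAag
Whether these 2 signals share transcripts was not tested. A probe of SAA2 and a probe of SAA1 have an exact stretch of 23 bases in common, although only the SAA2 probe was above background.
SAA2 and SAA1: atgccagagagaatatccagaga

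The array files give no position for these probes, so no locus is stated. Of the 54 names, 52 were matched in macaque gene tables, all but IL32 and CXCL2. Several members are neighbours in the RefSeq annotation of the assembly T2T-MMU8v2.0. CCL2, CCL7, CCL11 and CCL8 follow each other with 0 protein-coding genes between them, as do IL1A and IL1B, CXCL11 and CXCL10, SAA1 and SAA2, and CXCL6 and IL8 (listed as CXCL8), while 1 gene lies between IL1R1 and IL1RL1. Of these neighbours, IL1R1 and IL1RL1, and CCL2 and CCL7, were measured together.

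Many of the inflammatory genes had lower signals on the pubertal array than on the infant array, and none was as much as 2-fold higher relative to the other genes. Of the 54 members, 36 were measured on both arrays, which is 66.7%, against 66.2% of all gene names. Of these 36, 12 were lower by 2-fold or more on the pubertal array (33.3%), while 6.32% of all 14243 genes measured on both arrays were. Higher by 2-fold or more were 0 of the 36, against 7.32% of all genes. Lower by 4-fold or more were 2 members, IL6 and IL1RL1, against 0.857% of all genes, although IL1RL1 stood at -1.57 with normexp background correction and so missed 4-fold there. A difference below 0 was found for 29 members (80.6%) and for 54.2% of all genes. The members' median was -0.53, with a range from -2.48 to 0.74, and the median of all genes was -0.06. Close to the threshold lay ICAM1 (-1.07), CCL2 (-1.003) and SAA2 (-1.001) on the inner side, and TNFAIP6 (-0.96) just outside.

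These counts depend on the scale. With 8 spike-in control probes in place of the 75th percentile, each difference rises by 1.00. Then 45.6% of all genes are higher by 2-fold or more and 0.864% lower by 2-fold or more, and among the members 7 are higher and 2 lower. On that scale the members' median is 0.46 and that of all genes 0.94. The gap of the members' median to that of all genes, -0.48, is the same on both scales, and it stayed between -0.51 and -0.37 in every alternative tried. The 12 members named below as lower by 2-fold or more lay below 0 on the spike-in scale too, although ICAM1 at -0.07, CCL2 at -0.01 and SAA2 by less than 0.01 only.

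**Figure D1:**
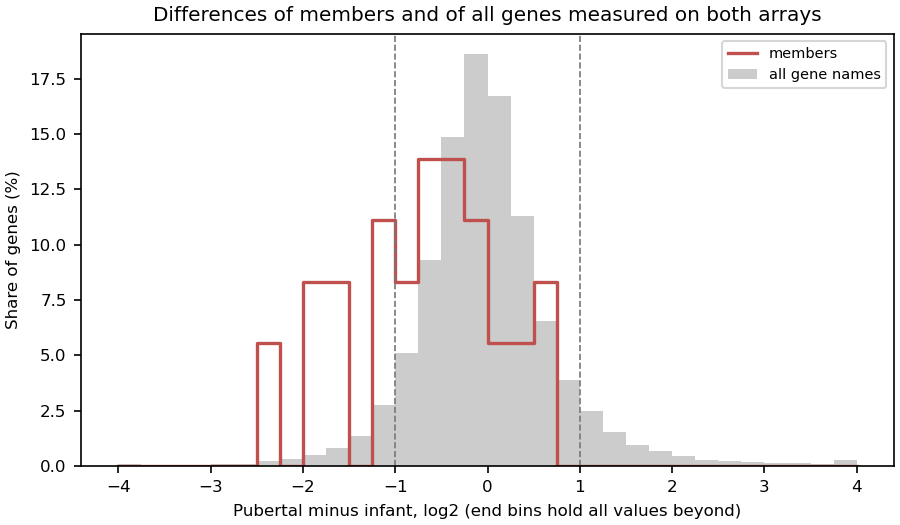
Share of genes (vertical axis, percent) in bins of the difference between the arrays (horizontal axis, log2, pubertal minus infant), for all 14243 measured genes (grey bars) and for the 36 measured members (red outline). Dashed lines mark 2-fold: 12 members lie to the left of the lower line and 0 to the right of the upper one.

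Of the IL-1 family members, 4 of the 5 measured genes were lower by 2-fold or more on the pubertal array, and the median of the 5 was -1.67. IL1A, a cytokine that binds the IL-1 receptor and also acts inside the nucleus, gave 66.9 units pubertal and 200.3 units infant, a difference of -1.67 ± 0.22 (scanner error), or 3.19-fold. IL1R1, the signalling receptor for IL1A and IL1B, gave 775 and 2251 units, a difference of -1.63 (3.09-fold). A second IL1R1 probe was well above background on the infant array alone, with 14.2 and 43.9 units. A ligand and its receptor were thus both lower on the pubertal array.

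The alarmin IL33, which is released from injured cells, gave 329 units pubertal and 1112 units infant, a difference of -1.85 (3.60-fold). Its receptor IL1RL1, also called ST2, gave 115 and 519 units, a difference of -2.27 ± 0.21 (4.81-fold). So the same held for this second pair of ligand and receptor. IL18, which promotes interferon gamma production, was the exception in the family, with 1143 units pubertal and 869.9 units infant and a difference of 0.30. IL1B and the receptor antagonist IL1RN were not well above background on either array. On the spike-in scale the 4 lower genes remained below 0, from -1.27 for IL1RL1 to -0.63 for IL1R1.

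Among the IL-6 family, STAT3 and SOCS genes, IL6 differed most and the other members little. IL6 gave 288 units pubertal and 1514 units infant, a difference of -2.48 ± 0.21, or 5.59-fold, the lowest value among the measured members. IL11, another cytokine of this family, gave 393 and 527 units and differed by -0.51. The IL-6 receptor IL6R, with 276 and 225 units, differed by 0.21, about the size of its error. IL6ST, which encodes gp130, gave 1541 and 2127 units and differed by -0.55. The ligand thus differed more than either chain of its receptor.

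STAT3 differed by -0.46, with 3 probes from -0.64 to -0.17. Its brighter probes overlap over 40 bases, so they are not separate readings. The SOCS genes are feedback inhibitors of cytokine receptors. SOCS2 gave 380 units pubertal and 241 units infant and differed by 0.57, with 1 measured probe. SOCS3 differed by 0.35, but its probes gave 0.79 and -0.08, and SOCS1 differed by -0.17 with probes at 0.46 and -0.81. The direction of SOCS1 thus depends on the probe. On the spike-in scale, 1 of these 8 genes, IL6 at -1.48, stayed below 0.

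Among the other interleukin genes, IL4R was lower and IL13RA1 differed little. IL4R, the receptor chain shared by IL-4 and IL-13, gave 22701 units pubertal and 61808 units infant, a difference of -1.53 ± 0.20 (2.90-fold). IL13RA1, its partner chain, differed by -0.30 with 3 probes between -0.59 and -0.10. On the spike-in scale IL4R stayed below 0 (-0.54) and IL13RA1 did not (0.70). IL13RA2, a decoy receptor for IL-13, was well above background only on the pubertal array, with 28.3 and 17.2 units. It was at least 1.44-fold higher there, as a lower bound against the dimmest signal well above background on the infant array. That bound, 0.53 on the log2 scale, leaves out the scanner error of the probe's difference, 0.43. IL15 and IL32 were not well above background on either array.

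**Figure D2:**
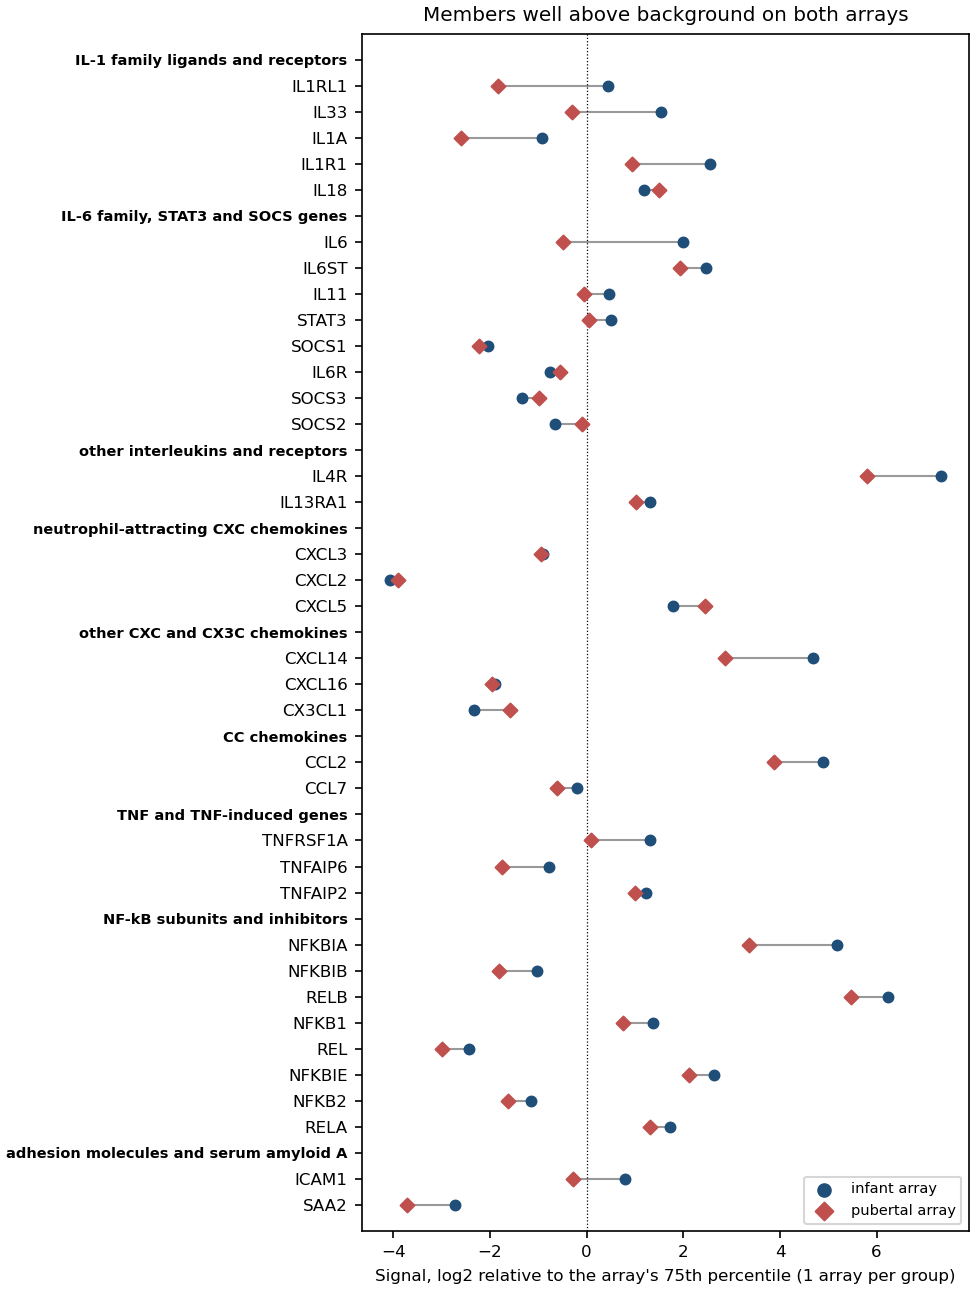
Signal of each of the 36 measured members on the infant array (blue circles) and the pubertal array (red diamonds), as log2 relative to the array's 75th percentile (horizontal axis), grouped by role. The grey line joins the 2 arrays of a gene; IL6, IL33, IL1RL1, IL11 and ICAM1 lie above 0 on the infant array and below 0 on the pubertal one.

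Of the chemokines that attract neutrophils, 3 of 6 were measured, and none was lower by 2-fold or more on any scale used. CXCL5 gave 2235 units pubertal and 1320.2 units infant and differed by 0.67 ± 0.20. CXCL3, with 211 and 205 units, differed by -0.05, less than its error of 0.21. CXCL2, with 27.1 and 22.7 units, was near the dimmest signals well above background (20.8 and 18.5 units) and differed by 0.16 ± 0.40. IL8, CXCL1 and CXCL6 were not well above background on either array. IL8 had 2 such probes, rich in A and T, with 35% and 16.7% G and C over their 60 bases, and their first 30 bases are shown here.
IL8 probe 1: aacaaaaagataaaaagagttgaaagacgt
IL8 probe 2: tagattcttataatattatttaaatgactg

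Among the remaining CXC and CX3C chemokines the genes went apart. CXCL14, a chemokine of epithelia and stroma, gave 2961 units pubertal and 9839 units infant, a difference of -1.82 ± 0.20 (3.53-fold), and it stayed below 0 on the spike-in scale, at -0.82. CX3CL1, or fractalkine, a membrane-bound chemokine, had the highest value among the measured members, 0.74, but its probes disagreed. The brighter probe gave 550 units pubertal and 157 units infant, a difference of 1.72 ± 0.21. The dimmer probe gave 32.9 and 36.8 units, a difference of -0.25 ± 0.31, and has 65% G and C over its 60 bases. Their first 30 bases are shown because the direction depends on which is read.
CX3CL1 brighter probe: agtaggaagactttggaaagacttttccaa
CX3CL1 dimmer probe: catgccaccatggacccccagaggctgggc

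CXCL16, a chemokine that is also a scavenger receptor, showed the same pattern. Its brighter probe gave 499.7 units pubertal and 293 units infant (0.68), its dimmer one 22.1 and 36.0 units (-0.80), and the mean was -0.06. With the brightest probe of a gene, CX3CL1 was higher by 2-fold or more and CXCL16 lay at 0.68. CXCL10 and CXCL11, chemokines induced by interferon, were not well above background on either array.

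Of the CC chemokines, CCL2 and CCL7 were measured. CCL2, which attracts monocytes, gave 5995 units pubertal and 11294 units infant, a difference of -1.003 ± 0.20 (2.00-fold), on the edge of the threshold. Its neighbour in the genome CCL7, also a monocyte attractant, gave 265 and 334 units and differed by -0.43 ± 0.21. CCL5, CCL8, CCL11 and CCL20 were not well above background on either array. On the spike-in scale CCL2 was at -0.01 and CCL7 at 0.57.

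In the TNF group, TNFRSF1A, the main receptor for TNF, was lower with both probes. The brighter one gave 4216 units pubertal and 8649 units infant (-1.13), the dimmer one 44.9 and 104 units (-1.30), with a mean of -1.21 ± 0.16 (2.32-fold). The dimmer probe shares runs of 18 to 23 bases with probes of HDAC4, SNAI2, COTL1, TPM1 and COX7B, and the brighter probe shares none of that length. TNFAIP6, a hyaluronan-binding protein made in inflammation, gave 121 and 222 units and differed by -0.96 ± 0.21. TNFAIP2, another gene induced by TNF, gave 817 and 891 units and differed by -0.21 ± 0.20.

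TNFAIP3, which encodes A20, an enzyme that dampens NF-kB signalling, was well above background on the infant array alone, with 19.6 units pubertal and 36.3 units infant. On the pubertal array it was lower by at least 1.85-fold, a lower bound from 1 of its 2 probes that leaves out that probe's scanner error of 0.45 (log2). That bound, 0.89 on the log2 scale, is smaller than the shift of 1.00 that spike-in scaling brings, so the direction does not hold there. TNF itself was well above background on neither array. On the spike-in scale TNFRSF1A was at -0.22, while TNFAIP6 at 0.04 and TNFAIP2 at 0.78 lay above 0.

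All 8 NF-kB subunits and inhibitors were measured, and all 8 differences were below 0 relative to the other genes, with a median of -0.59, although on the spike-in scale NFKBIA alone stayed below 0 (-0.81). NFKBIA, the inhibitor I-kappa-B alpha and itself a target of NF-kB, gave 4197 units pubertal and 13836 units infant, a difference of -1.81 ± 0.20 (3.51-fold). The other 7 genes lay in the narrow range from -0.78 to -0.41, none of them past 2-fold. Each of the 8 was read by 1 measured probe.

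The inhibitor NFKBIB gave 116 units pubertal and 187 units infant and differed by -0.78, and the inhibitor NFKBIE gave 1771 and 2375 units and differed by -0.51. RELB, a subunit of the non-canonical pathway, gave 18120.5 and 28753 units and differed by -0.76. Its partner NFKB2 gave 131 and 172 units and differed by -0.49. Both members of this pair differed by less than 2-fold.

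NFKB1, a subunit of the canonical pathway, gave 680.2 units pubertal and 989 units infant and differed by -0.63. RELA, the main activating subunit, gave 1014 and 1265 units and differed by -0.41. REL, a subunit best known from lymphocytes, gave 51.3 and 70.8 units and differed by -0.55 ± 0.25. The single spot of RELA lay in an area where neighbouring spots differed together between the arrays, and without such areas the median of the other 7 was -0.63.

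**Figure D3:**
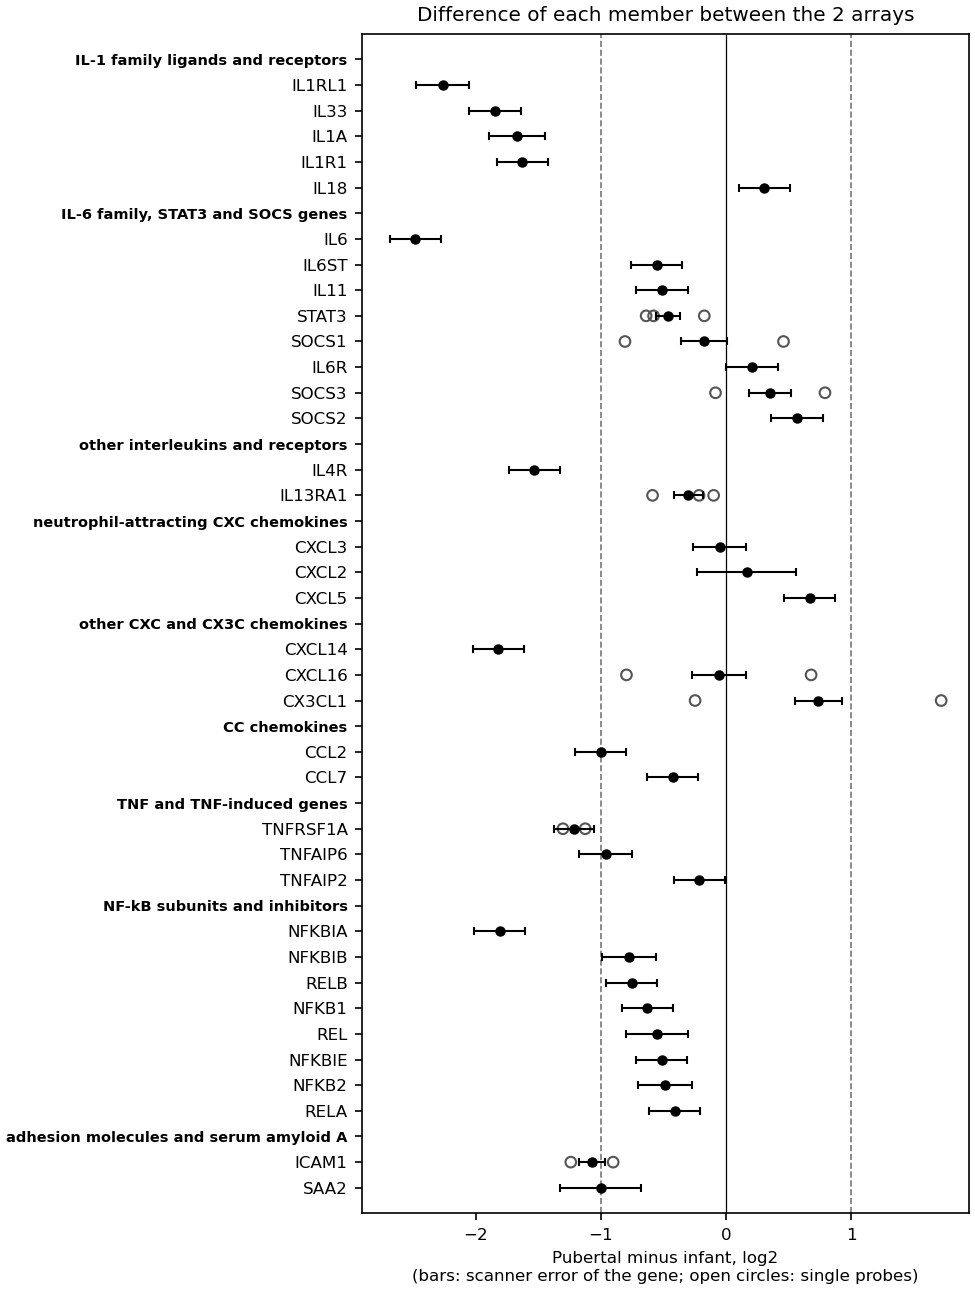
Difference between the arrays (horizontal axis, log2, pubertal minus infant) for the 36 measured members by role. Filled points are genes with the scanner error as bars, open circles single probes where a gene has several, and dashed lines mark 2-fold; the 8 NF-kB genes all lie left of 0, and the probes of CX3CL1, CXCL16, SOCS1 and SOCS3 fall on both sides of it.

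ICAM1, an adhesion molecule that holds leukocytes to other cells, differed by -1.07 ± 0.11 (2.10-fold), with both measured probes lower, and by -0.66 with its undetected probe included. The brighter probe gave 998 units pubertal and 2216 units infant (-1.24). The other was printed many times, which shows the spread of spots within an array. Its 11 pubertal spots had a lowest signal of 98.0, a median of 115 and a highest of 125 units. Its 10 infant spots had 184, 197 and 225 units. The spots of the 2 arrays did not overlap, and their SD was 0.10 (log2) on each array against a difference of -0.90.

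Another ICAM1 probe, which shares 40 of its 60 bases with this replicated one, was not well above background on any array, with 4.69 and 3.94 units. The end of the first and the start of the second are shown, with the 20 bases of each that the other lacks in capitals, as bases 31 to 60 and 1 to 30.
ICAM1 replicated probe: cagagattacCCAGTGAGGCCTTATTCCTC
ICAM1 overlapping probe: TTTTTCTATCGGCACAAAAGcactatatgg
Probes set 20 bases apart thus gave a readable signal and an unreadable one.

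A replicated probe of STAT3 behaved otherwise. Its 9 pubertal spots had a lowest signal of 75.7, a median of 87.7 and a highest of 101 units (SD 0.12, log2), and its 11 infant spots had 58.8, 98.4 and 123 units (SD 0.30). The spots of the arrays overlapped, and the difference of the means, -0.17, was smaller than the SD of single infant spots. The scanner error of that difference, taken over all these spots, was 0.07.

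**Figure D4:**
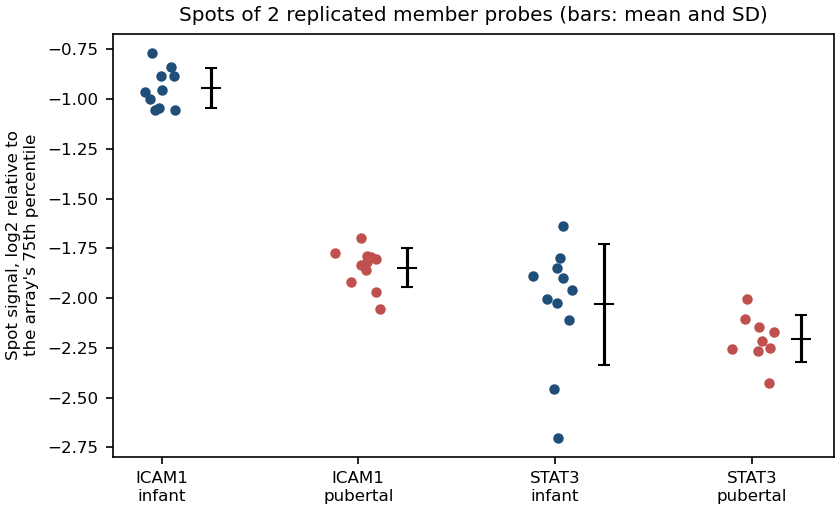
Signal of every spot (vertical axis, log2 relative to the array's 75th percentile) of the replicated ICAM1 and STAT3 probes on the infant (blue) and pubertal (red) arrays, with the mean and SD of the spots as black bars. ICAM1 spots of the arrays do not overlap, whereas those of STAT3 do; spots of 1 array share 1 RNA and are not replicates of a group.

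SAA2, an acute-phase protein, gave 30.7 units pubertal and 57.8 units infant, a difference of -1.001 ± 0.33, from 1 of its 6 probes. With all 6 probes included the difference was 0.20. SAA1 and VCAM1, an adhesion molecule for leukocytes, were not well above background on either array.

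In all, 16 of the 54 members were not well above background on either array, as were 5661 of all 21509 gene names. Member probes without such signal were somewhat poorer in G and C than those with it. Of the member probes, 46 were above background on both arrays, with a median of 43.3% G and C, and 38 on neither, with a median of 38.3%. Over the 35019 probes of all gene names the median was 43.3%. The motif ATTTA, known from unstable cytokine transcripts, was in the listed strand of 6 of the 88 member probes (6.82%), including those of IL1RL1 and NFKB1, against 7.51% of all these probes. On the opposite strand it was in 10 member probes (11.4%) against 7.47% of all. These letters say nothing about the rest of the transcripts.

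Genes around the members were lower in part. Beside the list counts that follow, 6.32% of all genes were lower and 7.32% higher by 2-fold or more. On the spike-in scale these shares were 0.864% and 45.6%. Of 32 other NF-kB target genes on the array, 26 were measured, of which 8 were lower and 3 higher by 2-fold or more, with a median of -0.43, or 0.57 on the spike-in scale. PTX3, a secreted pattern recognition protein, gave 260 units pubertal and 2208 units infant, a difference of -3.18 (9.03-fold). The complement factor CFB differed by -2.63 (6.19-fold), the inhibitor of cell death BIRC3 by -2.29 (4.88-fold) and the mitochondrial superoxide dismutase SOD2 by -2.19. Higher by 2-fold or more were TNFAIP8 (1.91), CCL4 (1.24), a chemokine, and CSF1 (1.097, with probes at 0.59 and 1.61), a growth factor of macrophages. With normexp background correction 0 of the 26 were higher by 2-fold or more, against 3.88% of all genes. TNFAIP8 gave 21.8 units on the infant array, near the dimmest signal well above background there (18.5 units). The prostaglandin-forming enzyme PTGS2 and the protease MMP3 were well above background on the infant array alone, and on the pubertal one were lower by at least 4.88-fold and at least 7.30-fold. The adhesion molecule SELE was so only on the pubertal array, and was higher there by at least 1.41-fold.

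Of 33 other genes of gp130 cytokines and the JAK-STAT pathway, 30 were measured, with 6 lower and 2 higher by 2-fold or more and a median of -0.32, or 0.67 on the spike-in scale. The oncostatin M receptor OSMR differed by -1.75. In the other direction, the transcription factor STAT4 differed by 1.88.

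The receptors and kinases upstream of NF-kB had no common direction on the scale of the 75th percentile. Of 30 genes of TLR, IL-1 and TNF receptor signalling on the array, 21 were measured, with 1 lower and 2 higher by 2-fold or more. Their median of 0.05 turned to -0.11 when arrays were scaled on the median, and to 1.05 on the spike-in scale, where 11 of the 21 were higher by 2-fold or more and 1 was below 0. The toll-like receptors TLR4 (1.08) and TLR2 (1.001) were higher and TLR6 (-1.30) was lower on the pubertal array. With median scaling or quantile normalization 0 of the 21 were higher by 2-fold or more, against 5.51% and 6.82% of all genes. With normexp background correction 0 were higher and 0 lower by that much, against 3.88% and 3.99% of all genes. Of 21 chemokine receptors, 7 were measured, none past 2-fold (5 higher on the spike-in scale), with a median of 0.34, and 12 were not well above background on either array. Of 8 proteins that control the stability of cytokine transcripts, 7 were measured, with a median of 0.20 (4 higher by 2-fold or more on the spike-in scale), and TIA1, a repressor of TNF translation, differed by -1.22.

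**Figure D5:**
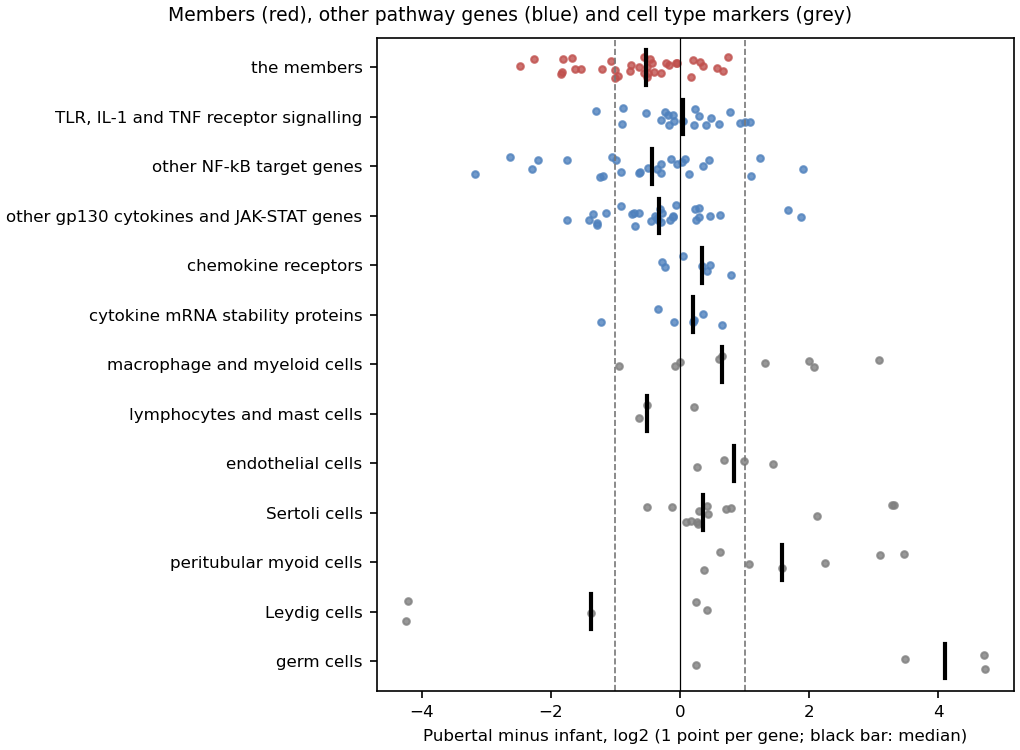
Difference between the arrays (horizontal axis, log2, pubertal minus infant) for each measured gene of the members (red), of other pathway lists (blue) and of cell type marker lists (grey), with the median of each list as a black bar and dashed lines at 2-fold. The members' median is -0.53, that of myeloid markers 0.65 and that of peritubular myoid cell markers 1.57.

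Markers of other cell types also differed between the cultures, and in bulk RNA fewer cells of a type and less RNA per cell cannot be told apart. Of 16 macrophage and myeloid markers, 9 were measured, 4 of them higher by 2-fold or more on the pubertal array (CD163, CSF1R, PTPRC and TYROBP) and none 2-fold lower. Their summed signal was 8.37 times the 75th percentile on the pubertal and 3.62 times on the infant array. The largest part of the pubertal sum is CD163 (1279 units pubertal, 142 infant), and of the infant sum ITGAX (960 units pubertal, 575 infant). Besides the 4 higher ones, the measured markers were ITGAX (0.65), CD14 (0.60), FCER1G (0.0049), ITGAM (-0.08) and CD68 (-0.94), so the list did not go 1 way. C1QA, LYZ and MARCO were not well above background on either array, and AIF1, C1QB, FCGR3A and MRC1 were on the pubertal array alone.

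Of 11 lymphocyte and mast cell markers 3 were measured, with summed signals of 8.08 pubertal and 7.13 infant that rest mostly on CD79A (0.22). CD3E (-0.63, with probes at -1.31 and 0.05) and CD8A (-0.51) were below 0. NKG7, well above background on the infant array alone, was lower by at least 5.10-fold on the pubertal one. CD2 went the other way: only its pubertal signal was readable, higher by at least 1.34-fold. CD3D, CD3G, MS4A1, GNLY, CPA3 and MS4A2 were not well above background on either array. Of 9 endothelial markers 4 were measured, with summed signals of 1.75 pubertal and 0.8496 infant, and CDH5, KDR, TIE1 and EMCN were on neither. All 7 peritubular myoid cell markers were measured, with summed signals of 168.2 and 84.3, and 5 were higher by 2-fold or more. The largest part of both these sums is CNN1 (33118 units pubertal, 20263 infant), which differed by 0.62. The Sertoli cell markers summed to 296.7 pubertal and 162.4 infant, with 3 higher by 2-fold or more and a median of 0.36. These Sertoli sums rest mostly on CLU (0.72) and TF (3.32).

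Leydig cell markers were mixed. Of 6, 5 were measured, and 3 were lower by 2-fold or more, STAR (-4.24), CYP17A1 (-4.21) and CYP11A1 (-1.37), while HSD3B2 (0.25) and INSL3 (0.41) lay above 0. Their summed signals were 45.7 pubertal and 150.7 infant. The pubertal sum rests mostly on HSD3B2 (13160 units pubertal, 10400 infant) and the infant sum mostly on STAR (2158 units pubertal, 38384 infant). On the spike-in scale 2 of the 5 were lower and 2 higher by 2-fold or more, and LHCGR was well above background on neither array. Of 8 germ cell markers 4 were measured, with summed signals of 9.996 pubertal and 3.95 infant and a median difference of 4.10. The 3 higher by 2-fold or more were DAZL (4.72), STK31 (4.71) and TEX101 (3.48). UTF1, on which the infant sum mostly rests, differed by 0.24, with 3 probes from -0.24 to 0.54. For SYCP3, DDX4 and MAGEA4 only the pubertal signal was readable, higher by at least 34.5-fold, 13.2-fold and 3.36-fold. NANOS2 was well above background on neither array. The part of any of these cell types in the differences of the inflammatory genes was not tested.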

How the data were processed

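The deposited files hold spot intensity values of 2 one-colour arrays of a human design (hg18), 1 pubertal and 1 infant, on the same slide and scan, per the file headers. The submitters' processing notes name the software as Agilent Feature Extraction 10.5.1.1. Its processed intensity, as deposited, had background subtracted with spatial and multiplicative detrending, and low values replaced with a surrogate, per the file headers. No scaling between arrays is recorded. Total RNA came from a Trizol extraction and was labelled by the Quick-Amp kit, per the labels' protocols.

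Each array had 52857 spots, 51538 of them gene spots. Outlier spots (96 pubertal, 91 infant) and control spots were left out. The log2 of the processed intensity was taken and the array's 75th percentile over gene spots subtracted. Spots of a probe were averaged. A probe needed the flag well above background on 50% or more of its spots to count as detected, and probes detected on both arrays were averaged to a gene. Where 1 array alone detected a gene, its fold is a bound: the dim side takes the array's lowest detected signal or the gene's own, whichever is higher. The scanner error is not taken into such a bound. The number of arrays limits the precision, and no test was made.

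The members and lists were chosen with earlier results of these data known. All members are accounted for. Of each list of other pathway genes, up to 4 were named, those with the largest difference among genes at least 2-fold different with probes of the same sign; genes with bounds, and TNFAIP8, CCL4 and CSF1, were named after their values were seen. Some genes that this rule takes are not reported here. The calculations were tested on simulated data. The 13 alternatives covered background correction (normexp, offset 50), scaling, normalization (loess span 0.3), the filter on dim probes, the combination of probes, the threshold, and spots in disturbed areas (826 spots, 1.56%), whose limits came from an earlier look at these arrays. Python 3.11.15 with numpy 2.4.6 and pandas 2.3.3, and R 4.3.3 with limma 3.58.1 (normexp), were used.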

Additional observations from a re-analysis of the deposited data

How the results depend on the processing

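The 33.3% of measured members at least 2-fold lower stayed within 1.5 times that share except in these settings. It was 22.2% with normexp background correction (8 of 36, without CCL2, ICAM1, SAA2 and TNFRSF1A), against 3.99% of all genes. With no filter on dim probes it was 22.2% (12 of 54), against 6.91% of all genes. Of these 12, 10 are among the 12 reported, without ICAM1 at -0.66 and SAA2. It was 5.56% with spike-in scaling, against 0.864% of all genes, and 5.56% at a threshold of 4-fold, against 0.857%. The share at least 2-fold higher, 0 of 36, became 19.4% with spike-in scaling (7 of 36) and 5.56% at 1.5-fold (2 of 36). Of all genes, 45.6% and 15.0% were higher in these 2 settings. It became 2.94% with only probes above the median signal and 2.78% with the brightest probe, in both cases from CX3CL1. Of all genes, 6.69% and 7.88% were higher there. The members' median, -0.53, became 0.46 with spike-in scaling, and ranged from -0.69 to -0.43 in the other settings. The difference of SAA2, -1.001, became 0.20 with no filter on dim probes, and that of IL1RL1, -2.27, became -1.57 with normexp.

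CCL2 and SAA2 passed 2-fold no longer with loess normalization or with the percentile of detected probes, and CCL2 with quantile normalization. TNFAIP6 passed it with median scaling and quantile normalization. The cause of these changes was not tested, beyond the uniform shift that a scaling applies. Without disturbed areas RELA was not measured, and 12 of 35 members were at least 2-fold lower, against 6.33% of all genes. Each group had 1 array, so leaving out a replicate was not possible, and dim signals limit CXCL2, SAA2, IL13RA2 and TNFAIP3 most.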
